A study of Homo sapiens with 24 samples.

Results

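The genes described here are those of glycolysis, gluconeogenesis and lactate transport, taken as 35 listed gene symbols and matched to the Ensembl gene IDs of the count table. Of these, 33 matched a row among 65180 gene IDs, and the other 2 were not analysed here. All 33 passed the filter on low counts in both fits, but PFKFB1, ALDOC and FBP1 lay at or under 1.04 CPM (counts per 1000000 counts of the library) throughout.

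Glycolysis splits glucose into pyruvate in the cytosol. Glucose enters through facilitative carriers, is trapped as a phosphate ester by hexokinases, is committed at phosphofructokinase 1, and is then converted through aldolase, glyceraldehyde 3-phosphate dehydrogenase, phosphoglycerate kinase, enolase and pyruvate kinase. Fructose 2,6-bisphosphate, which the PFKFB enzymes make and remove, sets the pace at phosphofructokinase 1, and lactate leaves the cell through monocarboxylate transporters. The proximal tubule in the kidney is known for making glucose from lactate and amino acids, and low oxygen is a textbook inducer of glycolytic genes through the hypoxia-inducible factors.

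Poly(A) RNA-seq was made from HK-2, a single immortalised line of human proximal tubular epithelium, after overnight serum deprivation and 24 h of treatment. The 6 groups were BAY 60-2770 (here BAY), an activator of soluble guanylate cyclase, in hypoxia at 0.3% oxygen (n = 3), solvent in hypoxia (n = 3), TGF-β1 at 2 ng/mL plus BAY in normoxia (n = 5), TGF-β1 at 2 ng/mL in normoxia (n = 5), BAY in normoxia (n = 3) and solvent in normoxia (n = 5). The labels give BAY as 1 mM, a dose that was not checked, and the controls received the solvents at 0.0001% DMSO and 4 µM HCl with 0.0001% BSA. The labels call the libraries biological replicates of the one line without saying whether they came from separate passages or days, so p-values measure only the spread between these libraries.

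Library totals lay between 78862528 and 105571250 estimated counts. In 3 normoxic groups the libraries fell into 2 subsets, seen in the data and named by no label: solvent replicates 1, 2 and 5 with TGF-β1 replicates 1 and 2 and TGF-β1 plus BAY replicates 1 and 2 (subset 1), and all other libraries of those groups (subset 2). Within a subset the standard deviation of log2 differences between 2 libraries of a group was 0.047 to 0.099, and across subsets 0.152 to 0.189. In hypoxic solvent it was 0.072 between replicates 1 and 2, but 0.146 and 0.132 between replicate 3 and these. In hypoxic BAY it was 0.092 to 0.131, and in normoxic BAY 0.058 to 0.108. Neither the BAY libraries in normoxia nor the hypoxic libraries could be assigned to a subset, so each comparison was also fitted with the solvent, TGF-β1 and TGF-β1 plus BAY libraries of 1 subset at a time, an alternative added after the data were seen. Members called in these fits are given with each comparison. The labels number the RNA samples group by group, with 21 to 23 for hypoxic BAY and 31 to 33 for hypoxic solvent. Only normoxic solvent replicate 5, with number 18, stands outside the block of its group. Any handling batch that follows those numbers cannot be told apart from oxygen, from BAY in hypoxia or from the interaction of oxygen and BAY. In normoxia such a batch would likewise go with BAY, TGF-β1, BAY on top of TGF-β1 and their interaction, except in that replicate.

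Of 10 proximal tubule markers, 6 or 7 lay under 1 CPM in each group, and SLC22A6 was at 0, while PAX8, GGT1 and SLC34A1 carried the summed level. That sum was 767 to 904 CPM in hypoxic BAY, 562 to 622 CPM in hypoxic solvent, 272 to 340 CPM in TGF-β1 plus BAY, 284 to 337 CPM in TGF-β1, 647 to 666 CPM in normoxic BAY and 423 to 497 CPM in normoxic solvent libraries. The summed level of 5 fibroblast markers was 286 to 299.5 CPM with TGF-β1, against 110 to 134 CPM with solvent in normoxia, with 2 of the 5 under 1 CPM and COL1A1 at 223 and 36.6 CPM (means), and that of 4 endothelial markers was 0.174 CPM or less in every library. Of the 4 fibroblast markers that passed the filter on low counts, 2 were called higher and 1 lower with TGF-β1. The sum of the 5 was also higher with BAY, at 163 to 169 CPM in normoxic BAY libraries. It was 223 to 242 CPM in hypoxic BAY, 124 to 131 CPM in hypoxic solvent and 262 to 284 CPM in TGF-β1 plus BAY libraries, the last not above TGF-β1 alone. The 4 podocyte markers, of which SYNPO carried the sum, reached 1228 to 1351 CPM in hypoxic BAY and 451 to 486 CPM in hypoxic solvent, against 69.1 to 90.2 CPM in normoxic solvent libraries. The 2 that passed the filter went opposite ways. Their log2 fold changes were 2.65 and -0.65 with hypoxia in solvent, and 1.46 and -1.20 with BAY in hypoxia. The 5 distal nephron markers, of which AQP2 and UMOD were at 0, summed to 3.32 to 3.64 CPM with TGF-β1, against 33.6 to 37.4 CPM with solvent. The 4 immune markers summed to 188 to 394 CPM over all groups through CD68 and CD74, with CD3E at 0. Mitochondrially encoded transcripts took 3.51 to 3.87% of counts in hypoxic libraries and 4.85 to 7.46% in normoxic ones. Whether any of these bears on the values below was not tested. In bulk RNA, fewer cells with a transcript and less of it per cell cannot be told apart.

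Levels of different genes were compared as CPM per kilobase of the principal transcript. On that scale the most abundant members in normoxic solvent cells were GAPDH at 1501 ± 138, the lactate dehydrogenase subunit LDHB at 1153 ± 70.0, ENO1 at 728 ± 59.1 and the pyruvate kinase gene PKM at 689 ± 55.9 CPM per kb (SD, n = 5). ENO1 and PKM differed by less than the sum of their standard deviations. In hypoxic solvent cells GAPDH was again first, at 3652 ± 118, followed by ENO1 at 2269.8 ± 103, ALDOA at 1475 ± 50.9 and the triosephosphate isomerase gene TPI1 at 1239.9 ± 97.3 CPM per kb (SD, n = 3). The 33 members together took 2.90% of all counts in hypoxic BAY, 3.00% in hypoxic solvent, 1.57% in TGF-β1 plus BAY, 1.68% in TGF-β1, 1.13% in normoxic BAY and 1.37% in normoxic solvent libraries (means).

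In hypoxia the carriers SLC2A1 and SLC2A3, most enzymes of the main chain and the lactate exporter SLC16A3 were higher. The isoforms of a step moved unequally. Of 33 members, 23 rose, 6 fell and 4 were not called by edgeR's quasi-likelihood test at a Benjamini-Hochberg adjusted p under 0.05 over all genes. In the same comparison 60.8% of 21316 genes were called, 29.2% higher and 31.6% lower, so the share of members that rose (69.7%) was above the background and the share that fell (18.2%) below it. At 2-fold or more 17 members rose, against 6.79% of all genes. The median log2 fold change was 1.05 over the members and -0.02 over all genes tested. The count was 23 higher and 6 lower with subset 1 of the solvent libraries (62.6% of all genes called there) and 23 higher and 4 lower with subset 2 (56.6%).

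Both carriers rose. SLC2A1, the widespread carrier GLUT1 (chr1:42925375-42959176, minus strand, GRCh38), had 1389.5, 1300.4 and 1495 CPM in the hypoxic solvent libraries, against 187, 182, 153, 152 and 185 CPM in normoxic solvent replicates 1 to 5. Every hypoxic library lay far above every normoxic one, with a log2 fold change of 3.03 ± 0.066 (SE, adjusted p = 1.48e-14). SLC2A3, the high-affinity carrier GLUT3 (chr12:7919230-7936275, minus strand), had 295, 290.0 and 288 CPM in hypoxia, against 52.3, 51.1, 35.6, 36.7 and 50.7 CPM in normoxia. These groups too did not overlap, and the log2 fold change was 2.69 ± 0.11 (adjusted p = 1.8e-10).

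Of the 4 glucose-phosphorylating enzymes, HK2, the inducible hexokinase, averaged 192 ± 9.75 CPM in hypoxia and 63.2 ± 2.90 CPM in normoxia (SD, n = 3 and 5; log2 fold change 1.60), and HK1, the constitutive one, 281 ± 1.14 against 142 ± 14.2 CPM (0.99). ADPGK, which uses ADP as phosphate donor, rose by 0.20. HKDC1, a hexokinase-like protein whose gene ends next to the start of HK1 on chromosome 10 (chr10:69220303-69267559 and chr10:69269984-69401884, both plus strand), fell by 0.16, a call lost with subset 2 of the solvent libraries (-0.07, adjusted p = 0.226).

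The isomerase GPI and all 3 phosphofructokinase 1 genes rose. PFKP, the platelet-type subunit, averaged 598 ± 13.5 CPM in hypoxia and 247 ± 6.30 CPM in normoxia (1.28 on the log2 scale), with 1.05 for the liver-type PFKL and 0.30 for the muscle-type PFKM.

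The PFKFB genes split. PFKFB4 (chr3:48517684-48562015, minus strand), one of the bifunctional enzymes that make and remove fructose 2,6-bisphosphate, had 229, 219 and 237 CPM in hypoxia, against 17.5, 16.6, 13.4, 14.6 and 16.9 CPM in normoxia. No other member rose as much: the groups lay 14.5-fold apart, with a log2 fold change of 3.86 ± 0.062 (adjusted p = 7.6e-16). PFKFB3, known for high kinase activity over its phosphatase activity, averaged 446 ± 24.1 and 87.6 ± 3.36 CPM (2.35 ± 0.035, adjusted p = 5.96e-16). PFKFB2 (chr1:207034366-207081024, plus strand), the isoform first described in heart, went the other way. It had 32.1, 31.4 and 32.5 CPM in hypoxia, against 53.4, 58.2, 65.5, 66.0 and 54.2 CPM in normoxia, so that the highest hypoxic library lay below the lowest normoxic one (log2 fold change -0.90 ± 0.079, adjusted p = 1.29e-07).

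From aldolase to pyruvate kinase, 8 of 10 genes rose. ENO2, the neuron-type enolase, rose by 2.23, the phosphoglycerate kinase gene PGK1 by 2.09, ALDOA by 1.74 and ENO1 by 1.64 on the log2 scale. GAPDH and TPI1 rose by 1.29 and 1.27. PGAM1 and PKM, by contrast, rose by 0.44 and 0.38. The muscle-type enolase ENO3 fell by 0.56, at 6.35 ± 0.445 CPM in hypoxia and 9.34 ± 0.987 CPM in normoxia.

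At the lactate end, SLC16A3, the transporter MCT4 that mainly exports lactate (chr17:82228397-82261129, plus strand), averaged 486 ± 11.6 CPM in hypoxia and 174 ± 13.9 CPM in normoxia (1.48 ± 0.045, adjusted p = 5.34e-13). SLC16A1, the transporter MCT1, averaged 319 ± 19.5 and 316 ± 20.7 CPM and was not called, nor was LDHB at 1643 ± 173 and 1774 ± 108 CPM.

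Among the side branches, PGM1, which links glucose 6-phosphate to glycogen, rose by 1.28 and PGM2 by 0.35. BPGM, which makes 2,3-bisphosphoglycerate, had 6.32, 5.96 and 6.47 CPM in hypoxia, against 10.3, 10.2, 9.37, 9.68 and 10.9 CPM in normoxia. All 3 hypoxic values lay below all 5 normoxic ones (-0.69 ± 0.068, adjusted p = 2.79e-07). G6PC3, the widespread glucose 6-phosphatase, had 43.2, 44.8 and 43.8 CPM in hypoxia, against 68.9, 68.0, 68.6, 66.8 and 71.7 CPM in normoxia, again without overlap (-0.64 ± 0.031, adjusted p = 6.27e-11).

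PCK1 and FBP1 were scarce in these cells. PCK1, the cytosolic phosphoenolpyruvate carboxykinase, averaged 1.34 ± 0.0921 CPM in hypoxia and 0.346 ± 0.151 CPM in normoxia and was called higher (1.96 ± 0.26, adjusted p = 1.16e-05). FBP1, the fructose 1,6-bisphosphatase of liver and kidney, had 6 to 16 counts per library in hypoxia and 18 to 37 in normoxia. Its call (adjusted p = 0.0212) was lost without hypoxic solvent replicate 1 or 2 or without normoxic solvent replicate 1 (adjusted p = 0.0639, 0.119 and 0.0509), and also with subset 2 of the solvent libraries (0.096). The groups of 29 of 33 members, the 29 called ones, did not overlap, against 57.2% of all genes tested, called or not.

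**Figure D1:**
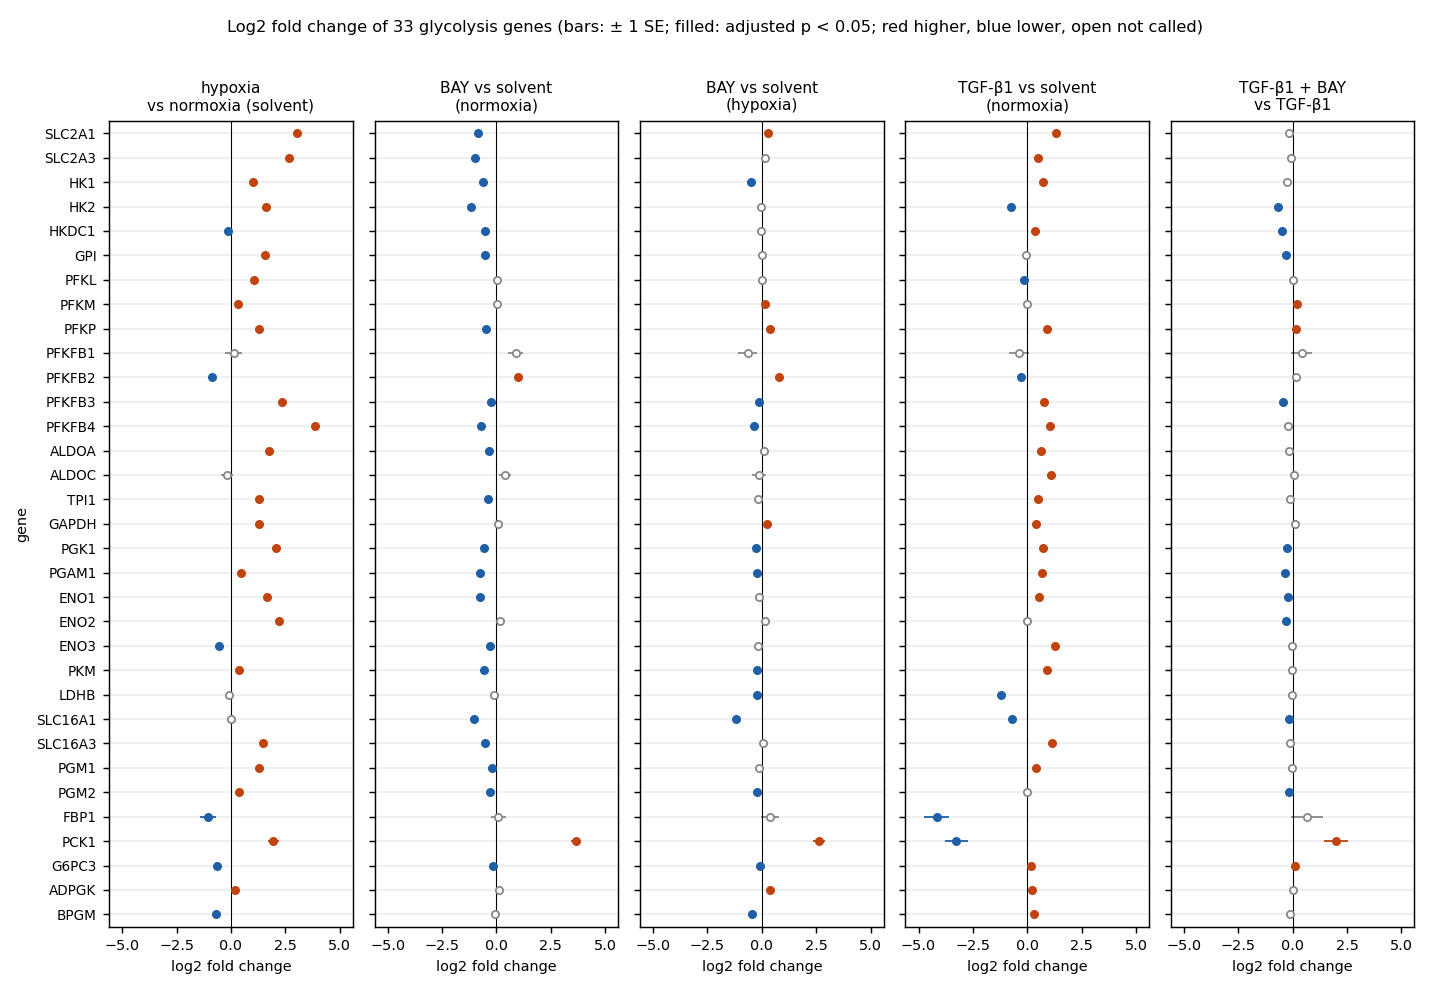
Log2 fold change with its standard error (bars) for the members in the 5 comparisons, each named in the panel title, with genes from glucose uptake down to the side branches; filled points were called at an adjusted p under 0.05 (red higher, blue lower) and open points were not. FBP1 and PCK1 with TGF-β1 rest on few counts. In hypoxia PFKFB4, SLC2A1 and SLC2A3 lie farthest to the right, at 3.86, 3.03 and 2.69.

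Promoter windows were searched for ACGTG and GCGTG, the core motif known for hypoxia-inducible factors. RefSeq promoter windows of 300 bases (250 before to 50 after each start, GRCh38.p14) matched 29 of the 33 members with 59 windows, counting overlapping windows of a gene separately. Both strands were searched, and matches that overlap, such as those on the 2 strands of CACGTG, were each counted. ACGTG occurred in 37.3% of the members' windows and in 21.4% of 35116 windows over all genes, GCGTG in 39.0% and 36.5%, and either motif in 64.4% and 48.4%. Whether a match goes with a change in level was not tested. Of the windows, 4 are shown, which belong to the member that rose most, to members with a strong rise and several or 1 matches, and to a member that fell. Capitals mark ACGTG or GCGTG as read 5′ to 3′ on the strand of the gene or as its reverse complement (CACGT or CACGC), and CACGTG holds the motif on both strands.
PFKFB4: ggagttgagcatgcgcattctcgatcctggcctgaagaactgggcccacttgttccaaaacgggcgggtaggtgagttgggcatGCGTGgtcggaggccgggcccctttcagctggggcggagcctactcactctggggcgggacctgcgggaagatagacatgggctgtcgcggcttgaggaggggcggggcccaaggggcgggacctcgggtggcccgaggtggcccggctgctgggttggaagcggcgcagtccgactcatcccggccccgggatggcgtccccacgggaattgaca
PGK1: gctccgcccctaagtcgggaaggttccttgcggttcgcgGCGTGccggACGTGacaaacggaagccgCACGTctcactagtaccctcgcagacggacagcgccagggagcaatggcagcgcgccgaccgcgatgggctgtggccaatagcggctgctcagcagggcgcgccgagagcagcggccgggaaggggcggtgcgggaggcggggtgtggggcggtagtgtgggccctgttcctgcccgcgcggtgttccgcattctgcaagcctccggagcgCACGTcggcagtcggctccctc
ENO2: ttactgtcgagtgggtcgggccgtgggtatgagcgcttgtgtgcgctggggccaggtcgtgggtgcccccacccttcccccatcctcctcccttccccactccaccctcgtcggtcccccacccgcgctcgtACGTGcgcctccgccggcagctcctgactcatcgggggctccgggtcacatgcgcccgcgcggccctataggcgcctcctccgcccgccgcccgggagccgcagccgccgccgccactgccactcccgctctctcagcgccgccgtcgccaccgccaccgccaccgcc
G6PC3: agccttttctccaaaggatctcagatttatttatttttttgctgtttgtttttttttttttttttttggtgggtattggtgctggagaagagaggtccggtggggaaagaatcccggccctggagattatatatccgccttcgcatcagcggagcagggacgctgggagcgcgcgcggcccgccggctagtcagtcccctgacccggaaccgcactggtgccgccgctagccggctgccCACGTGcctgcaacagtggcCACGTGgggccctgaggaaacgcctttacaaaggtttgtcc
The windows are at chr3:48556754-48557053 (minus strand), chrX:78103998-78104297 (plus strand), chr12:6914330-6914629 (plus strand) and chr17:44070423-44070722 (plus strand). PFKFB4, highest in fold, held 1 GCGTG, PGK1 held 3 ACGTG and 1 GCGTG, ENO2 held 1 ACGTG, and G6PC3, which fell, held 2 copies of CACGTG. A match describes the letters of the window only. SLC2A3, PFKFB2, SLC16A1 and PCK1 had no window in the table.

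BAY in normoxia was accompanied by lower levels across the pathway, with PFKFB2 and PCK1 as the rises. Of 33 members 2 rose, 21 fell and 10 were not called, against 43.9% of all 21316 genes called, 20.6% higher and 23.3% lower. The share of members that fell, 63.6%, was thus above the background, and the share that rose, 6.06%, below it. Scaled to library totals without TMM, 5 rose and 20 fell. With subset 1 of the solvent libraries 4 rose and 21 fell (49.8% of all genes called), and with subset 2 it was 3 and 20 (33.7%). The median log2 fold change was -0.29 over the members and 0.00 over all genes. The groups of 24 of 33 members did not overlap, all 23 called ones among them, against 45% of all genes tested, called or not.

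HK2 had 27.5, 28.0 and 28.7 CPM in the normoxic BAY libraries, against 65.0, 66.5, 60.0, 60.3 and 64.3 CPM in the solvent libraries. Each BAY library lay under the lowest solvent library, and the log2 fold change was -1.15 ± 0.046 (adjusted p = 3.82e-11). SLC16A1 had 151, 147 and 160.4 CPM with BAY, against 328, 323, 292, 296 and 339 CPM with solvent, a drop without overlap of -1.03 ± 0.063 (adjusted p = 4.34e-09). SLC2A3 had 22.7, 21.8 and 22.6 CPM with BAY and, in solvent, the 5 values given above, all higher (-0.997 ± 0.11, adjusted p = 1.42e-05). SLC2A1 averaged 95.5 ± 1.55 CPM with BAY and 172 ± 17.6 CPM with solvent (-0.83).

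In the lower part of the chain 7 of 10 genes fell, among them ENO1 (-0.77), PGAM1 (-0.74), PKM (-0.57) and PGK1 (-0.55). GAPDH averaged 2943 ± 45.3 CPM with BAY and 2815 ± 259 CPM with solvent and was not called, nor were ENO2 and ALDOC. The call of ENO3 (adjusted p = 0.0375) was lost without normoxic BAY replicate 1 or 2 or solvent replicate 3 or 4 (adjusted p = 0.082, 0.116, 0.0801 and 0.0745) and with subset 1 (0.128), and that of PGM1 with subset 2 (0.202).

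PFKFB2 was the member with at least 5 CPM that rose. It had 108, 119 and 122 CPM with BAY, against 53.4, 58.2, 65.5, 66.0 and 54.2 CPM with solvent, all BAY values being above all solvent values (0.98 ± 0.074, adjusted p = 7.25e-08). PFKFB3 and PFKFB4, which act at the same step, fell by 0.25 and 0.69. PCK1 also rose, at 4.34, 4.58 and 4.02 CPM with BAY, against 0.495, 0.361, 0.130, 0.271 and 0.473 CPM with solvent (log2 fold change 3.66 ± 0.25, adjusted p = 4.07e-08). It lay under the 5 CPM set for giving values by library and was singled out after its values were seen.

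**Figure D2:**
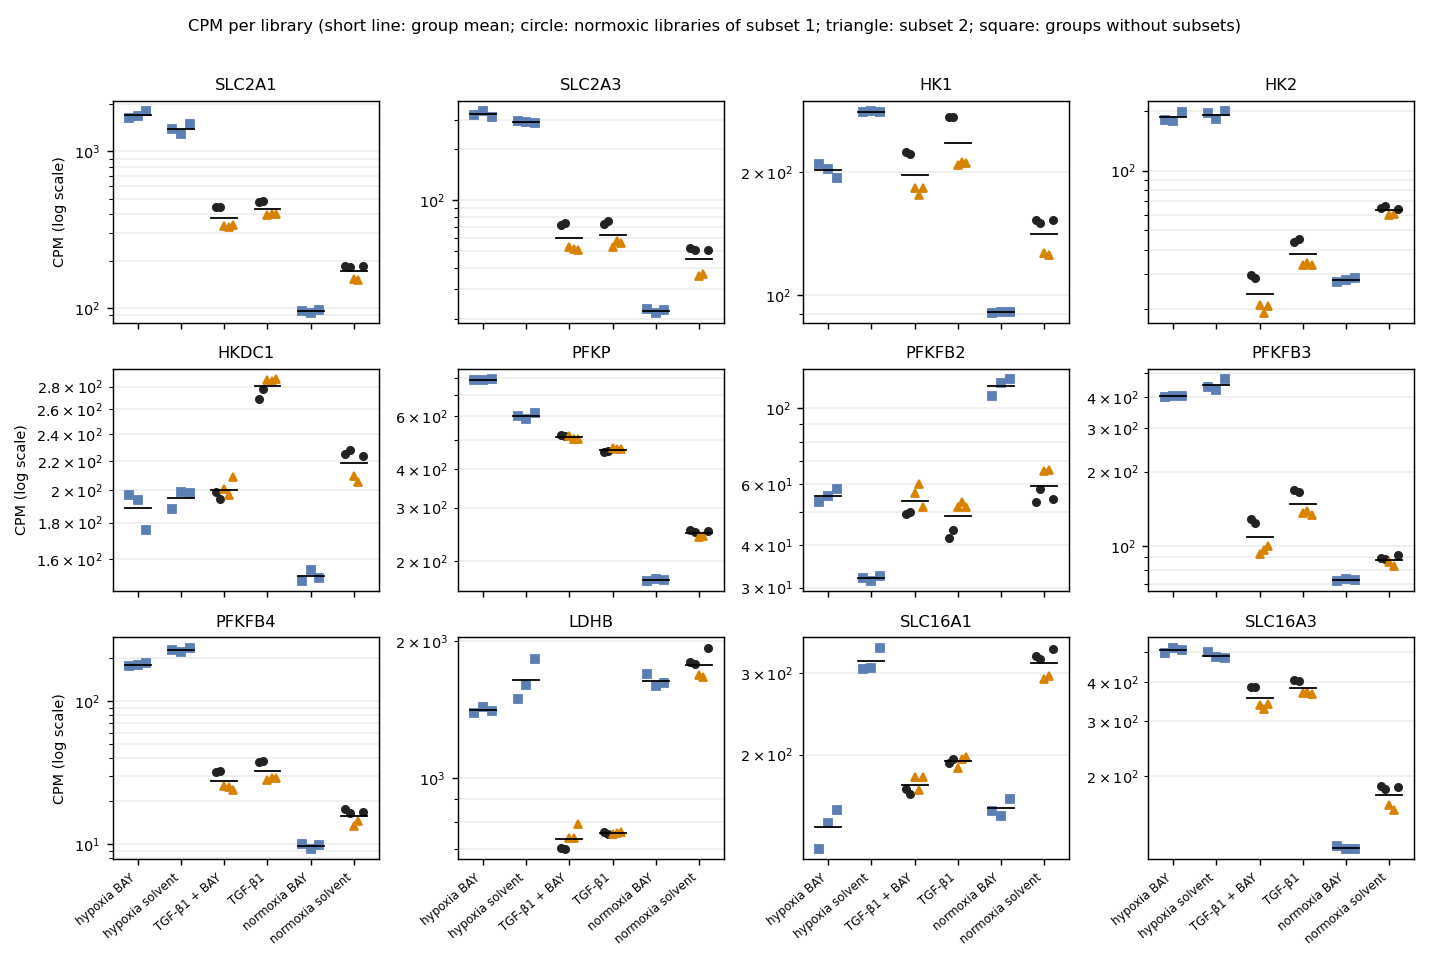
CPM in every library (log axis) for 12 members in the 6 groups, with horizontal bars at group means; circles are libraries of subset 1, triangles of subset 2 and squares of groups without subsets. SLC2A1, SLC2A3, HK2, PFKFB3, PFKFB4 and SLC16A3 are highest in the hypoxic groups, while PFKFB2 is highest with BAY in normoxia, at a mean of 116 CPM.

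With BAY in hypoxia the direction was mixed, with PCK1, PFKFB2 and PFKP higher and SLC16A1, HK1 and BPGM lower. Of 33 members 7 rose, 11 fell and 15 were not called, against 37.9% of all genes called, 16.5% higher and 21.4% lower. The shares of members that rose and fell, 21.2% and 33.3%, were each above their background. With library totals 6 rose and 15 fell. Fits with subset 1 or subset 2 of the normoxic solvent libraries, which enter through the scaling and the shared estimate of the spread, gave 10 rises and 13 falls each (43% and 40.7% of all genes called). In both, SLC2A3, ALDOA and ENO2 were added to the rises and TPI1, ENO1 and PGM1 to the falls. The groups of 23 of 33 members did not overlap, all 18 called ones among them, against 48.7% of all genes tested, called or not. The median log2 fold change was -0.10 over the members and -0.02 over all genes.

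PCK1 had 8.71, 8.61 and 7.30 CPM in the hypoxic BAY libraries, against 1.36, 1.24 and 1.42 CPM in the hypoxic solvent libraries (2.61 ± 0.28, adjusted p = 4.51e-06). PFKFB2 had 53.2, 55.5 and 58.0 CPM with BAY, against 32.1, 31.4 and 32.5 CPM with solvent (0.79 ± 0.086, adjusted p = 4.63e-06). Both rose without overlap, as they did in normoxia. PFKP had 787, 784 and 791 CPM with BAY, against 597, 585 and 611 CPM with solvent, also without overlap (0.39 ± 0.032, adjusted p = 1.41e-07). SLC2A1 rose by 0.29, GAPDH by 0.24 and ADPGK by 0.39. The call of SLC2A1 was lost with all 24 libraries in 1 fit (edgeR adjusted p = 0.0531).

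SLC16A1 fell farthest. It had 125, 142 and 151 CPM with BAY in hypoxia, against 307, 308 and 341 CPM with solvent, a clear gap between the groups (-1.20 ± 0.069, adjusted p = 3.42e-09). HK1 had 209, 204 and 194 CPM with BAY, against 280.4, 283 and 281 CPM with solvent, and every BAY value was the lower (-0.48 ± 0.062, adjusted p = 1.76e-05). BPGM had 4.53, 4.96 and 4.20 CPM with BAY, below all 3 solvent values given above (-0.46 ± 0.076, adjusted p = 0.000189). SLC16A3 averaged 507 ± 10.4 CPM with BAY and 486 ± 11.6 CPM with solvent and was not called.

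Some of the smaller falls rested on single libraries. Without hypoxic BAY replicate 3 the calls of PGAM1, PKM and G6PC3 were lost (adjusted p = 0.0669, 0.0595 and 0.0976), and without hypoxic solvent replicate 3 those of PGAM1, LDHB and G6PC3 (0.054, 0.0581 and 0.0503). G6PC3 was also lost without hypoxic BAY replicate 1 (0.0812) or hypoxic solvent replicate 2 (0.114).

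The BAY comparisons in normoxia and in hypoxia share no libraries. HK1, PFKFB3, PFKFB4, PGK1, PGAM1, PKM, SLC16A1, PGM2 and G6PC3 fell in both, which is 42.9% of the 21 that fell in normoxia and 81.8% of the 11 that fell in hypoxia. Of all 33 members, 33.3% fell in hypoxia and 63.6% in normoxia, and shared falls over all genes were not counted. In hypoxia the call of PFKFB3 was lost with all 24 libraries in 1 fit (edgeR adjusted p = 0.289), and those of PGAM1, PKM and G6PC3 as given above. The difference between the BAY effects was tested as an interaction, the log2 change with BAY in hypoxia minus that in normoxia. It was positive for 14 members and negative for 1, against 16.8% of all genes called, 8.83% positive and 7.92% negative. With library totals the split was 12 and 3. With subset 1 it was 20 and 3 (27.6% of all genes called), and with subset 2 it was 12 and 2 (13.9%).

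Among called members the interaction was largest for SLC2A3 (1.15 ± 0.16, adjusted p = 0.000494), SLC2A1 (1.11 ± 0.10, adjusted p = 3.02e-06) and HK2 (1.10 ± 0.066, adjusted p = 4.74e-08). For SLC2A1 a rise with BAY in hypoxia, its call lost with all 24 libraries in 1 fit, stood against a fall in normoxia. For HK2, BAY and solvent means in hypoxia were 186 ± 10.3 and 192 ± 9.75 CPM, against 28.1 ± 0.569 and 63.2 ± 2.90 CPM in normoxia. PFKP also differed (0.88), as did ENO1 (0.62) and SLC16A3 (0.60). BPGM had the negative value called over all libraries (-0.41), a call lost without normoxic BAY replicate 1 (-0.34, adjusted p = 0.0643). PCK1, at -1.05 ± 0.36, was not called over all libraries (adjusted p = 0.0653), but was negative and called with subset 1 (-0.66, adjusted p = 0.0101) and with subset 2 (-1.81, adjusted p = 0.000522).

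**Figure D3:**
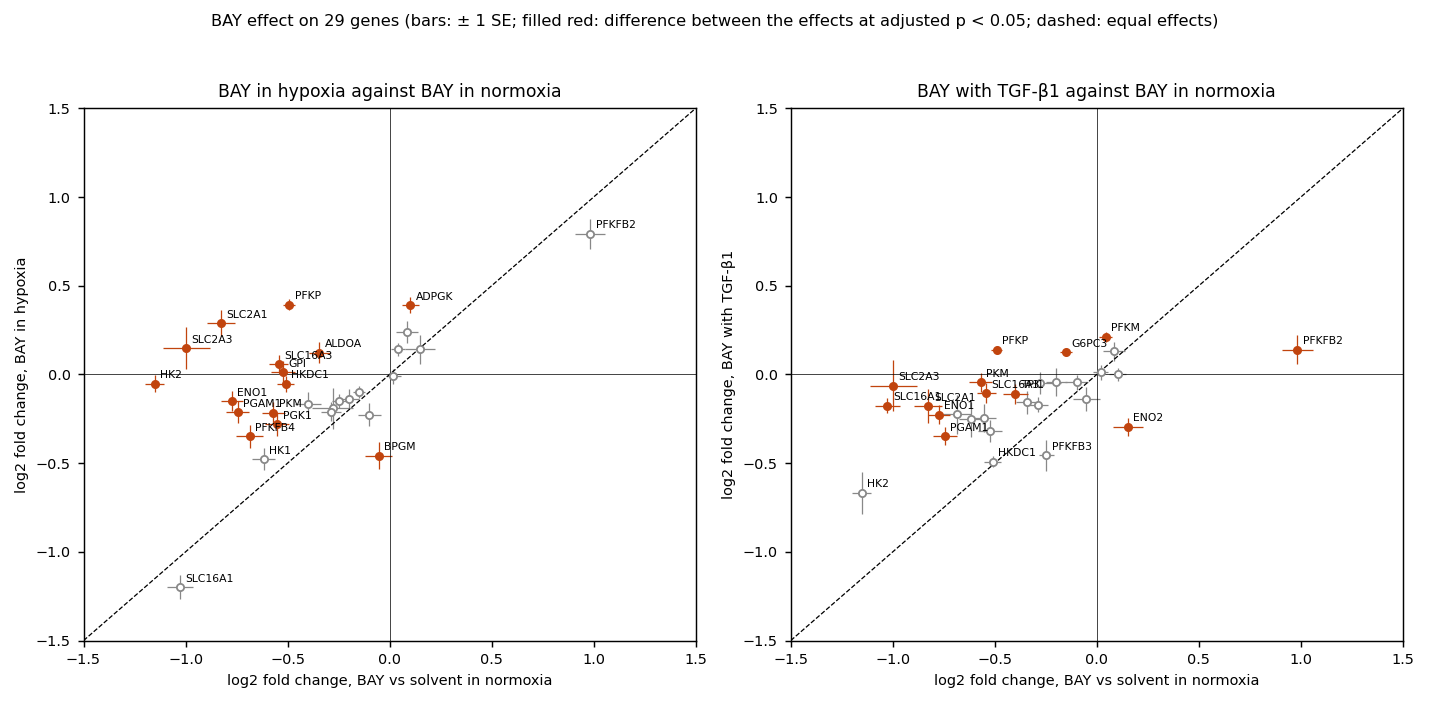
Log2 fold change with BAY in normoxia (horizontal axis, from the fit with the hypoxic libraries) against that in hypoxia and that on top of TGF-β1 (vertical axes) for 29 members. PFKFB1, ALDOC and FBP1, which were low, are left out. So is PCK1, whose changes with BAY, 3.66 in normoxia and 2.61 in hypoxia, exceed the axes. Bars are standard errors, the dashed diagonal marks equal change, and filled points have a called interaction. SLC2A1, SLC2A3 and HK2 lie above the diagonal in hypoxia, with interactions of 1.11, 1.15 and 1.10, and PFKFB2 lies below it with TGF-β1, at -0.83.

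TGF-β1, a profibrotic cytokine, was accompanied by higher levels of most of the chain in normoxia and by lower levels of HK2, LDHB and SLC16A1. Of 33 members 21 rose, 7 fell and 5 were not called, against 62% of 21639 genes called, 29.5% higher and 32.5% lower. The share of members that rose, 63.6%, was above the background, and the share that fell, 21.2%, below it. With library totals 19 rose and 11 fell; that scaling put the median of all genes at -0.17, against -0.04 with TMM. Subset 1 gave 22 rises and 6 falls (60% of all genes called), and subset 2 gave 21 and 8 (60.6%). The median log2 fold change over the members was 0.41.

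SLC2A1 had 473, 479.9, 391, 396 and 397 CPM in TGF-β1 replicates 1 to 5, above all 5 solvent values given above (1.31 ± 0.10, adjusted p = 2.22e-09). SLC16A3 had 405, 404, 368, 373 and 365 CPM with TGF-β1, against 186, 182, 162, 156 and 184 CPM with solvent, without overlap (1.14 ± 0.057, adjusted p = 3.74e-12). ENO3, at a low level, had 23.8, 22.7, 23.4, 21.4 and 23.0 CPM with TGF-β1, against 8.98, 8.39, 10.6, 10.2 and 8.57 CPM with solvent. Here too every TGF-β1 value was the higher (1.29 ± 0.066, adjusted p = 5.12e-12).

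From aldolase to pyruvate kinase 9 of 10 genes rose, including PKM (0.89), PGK1 (0.74), PGAM1 (0.67) and ALDOA (0.63). ENO2 was not called, at 172 ± 9.59 CPM with TGF-β1 and 174 ± 14.8 CPM with solvent. The subsets split on it, since it was called higher in subset 1 (0.20, adjusted p = 1.27e-05) and lower in subset 2 (-0.20, adjusted p = 4.79e-05). PFKP rose by 0.91, whereas PFKL fell by 0.16, with overlapping groups and a call lost in subset 1 (-0.053, adjusted p = 0.0969). PFKFB4 and PFKFB3 rose by 1.04 and 0.76, HK1 by 0.73 and HKDC1 by 0.36. PFKFB2 fell by 0.29, also with overlapping groups. G6PC3 and ADPGK rose by 0.16 and 0.20, calls that were lost with library totals (adjusted p = 0.386 and 0.22).

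LDHB, the subunit that predominates in heart-type lactate dehydrogenase, fell farthest among members with at least 5 CPM. It had 761, 753, 754, 757 and 761 CPM with TGF-β1, against 1799, 1780.1, 1683, 1669 and 1937 CPM with solvent, with a wide gap between the groups (-1.23 ± 0.041, adjusted p = 1.12e-14). HK2 had 43.7, 45.2, 33.3, 34.2 and 33.4 CPM with TGF-β1, below the 5 solvent values given above (-0.74 ± 0.12, adjusted p = 3.32e-05). Its subset 1 libraries stood higher than its subset 2 libraries under TGF-β1. SLC16A1 had 192, 195, 187, 196 and 198 CPM with TGF-β1, all below the solvent values (-0.71 ± 0.041, adjusted p = 3.18e-11). FBP1 had 0 to 3 counts per library with TGF-β1 and 18 to 37 with solvent, and PCK1 had 0 to 9 and 13 to 51 counts. Both were called lower (adjusted p = 4.04e-06 and 3.22e-05). The groups of 26 of 33 members did not overlap, against 50.8% of all genes tested, called or not. These 26 were among the 28 called members.

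With BAY on top of TGF-β1, PFKM, PFKP, G6PC3 and PCK1 were higher, and the falls included HK2, HKDC1 and PFKFB3. Of 33 members 4 rose, 10 fell and 19 were not called, against 29.5% of all genes called, 13.9% higher and 15.6% lower. The share that rose, 12.1%, was near the background, and the share that fell, 30.3%, above it. Within the subsets more members were called: 5 rose and 18 fell in subset 1 (30.2% of all genes called), and 5 rose and 16 fell in subset 2 (33.5%). The falls shared by both subsets were 15, among them SLC2A1, HK1, PFKFB4, ALDOA and SLC16A3, which were not called over all libraries, and GAPDH was an added rise. The median log2 fold change over all libraries was -0.11 for the members and 0.01 for all genes.

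HK2 had 29.8, 28.8, 20.9, 19.2 and 20.9 CPM in the TGF-β1 plus BAY libraries, replicates 1 to 5, against 43.7, 45.2, 33.3, 34.2 and 33.4 CPM in the TGF-β1 libraries. The groups did not overlap, and replicates 1 and 2, those of subset 1, were the high ones in each (-0.67 ± 0.12, adjusted p = 0.000374). HKDC1 had 199, 194, 201, 197 and 209 CPM with BAY added, against 269, 278, 286, 285 and 287 CPM with TGF-β1 alone (-0.49 ± 0.032, adjusted p = 1.7e-09). PFKFB3 had 128, 123, 93.1, 96.0 and 99.8 CPM with BAY added, against 168, 165, 136, 138 and 134 CPM (-0.46 ± 0.087, adjusted p = 0.000635). Neither of these overlapped between groups. GPI, PGAM1, ENO1, ENO2, SLC16A1, PGM2 and PGK1 also fell, by 0.17 to 0.35. The call of PGK1 was lost without TGF-β1 replicate 1 or 2, or TGF-β1 plus BAY replicate 3, 4 or 5 (adjusted p = 0.0629 to 0.0711).

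PFKM, the muscle-type phosphofructokinase, had 123, 118, 125, 124 and 128 CPM with BAY added, against 109, 109, 103, 107 and 106 CPM with TGF-β1 alone (0.21 ± 0.026, adjusted p = 5.37e-06). PFKP had 519, 516, 515, 505 and 503 CPM, against 458, 459, 469, 468 and 468 CPM (0.14 ± 0.022, adjusted p = 8.33e-05). G6PC3 had 83.1, 83.3, 85.6, 81.4 and 87.4 CPM, against 76.9, 75.6, 77.6, 76.9 and 78.3 CPM (0.13 ± 0.024, adjusted p = 0.000541). In all 3 the lowest library with BAY added lay above the highest without. PCK1 was the remaining rise, at 11 to 18 counts per library with BAY added and 0 to 9 without (1.99 ± 0.57, adjusted p = 0.0129), a fold that rests on few counts and a call lost in subset 1 (1.00, adjusted p = 0.0767). The groups of 13 of 33 members did not overlap, against 22.1% of all genes tested, called or not. These 13 were among the 14 called members.

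The BAY comparisons in normoxia with and without TGF-β1 also share no libraries. The change with BAY on top of TGF-β1 minus the change with BAY alone was positive for 11 members and negative for 2, against 20.7% of all genes called, 13.7% positive and 7.08% negative. In subset 1 it was 17 and 5 (32.7% of all genes called), and in subset 2 it was 16 and 3 (23.7%). Among called members the largest absolute values belonged to SLC2A3 (0.95 ± 0.23, adjusted p = 0.00596), SLC16A1 (0.87 ± 0.063, adjusted p = 2.3e-08) and PFKFB2 (-0.83 ± 0.12, adjusted p = 7.16e-05). PFKFB2 averaged 53.5 ± 4.76 CPM with TGF-β1 plus BAY and 48.6 ± 5.08 CPM with TGF-β1, against 116 ± 6.84 CPM with BAY and 59.5 ± 6.01 CPM with solvent. SLC2A3 averaged 60.2 ± 11.6 and 62.9 ± 10.4 CPM with TGF-β1, with and without BAY, against 22.3 ± 0.508 CPM with BAY and 45.3 ± 8.36 CPM with solvent.

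The isoforms of a step were also set against each other. Within a library the log2 ratio of 2 genes does not depend on scaling, and 12 pairs were tested in each comparison by an exact, 2-sided permutation test over libraries with Benjamini-Hochberg adjustment over the pairs. In hypoxia all 12 ratios differed without overlap, at the smallest p that 3 against 5 libraries allow (exact permutation p and adjusted p = 0.0357). PFKFB2 against PFKFB3 differed by -3.24 on the log2 scale, PFKFB4 against PFKFB3 by 1.51, SLC16A1 against SLC16A3 by -1.47, HKDC1 against HK1 by -1.16 and HK2 against HK1 by 0.61. With TGF-β1 all 12 ratios differed as well (adjusted exact permutation p = 0.00794, the smallest possible). The largest were SLC16A1 against SLC16A3 at -1.85, HK2 against HK1 at -1.47 and PFKP against PFKL at 1.07.

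With BAY in normoxia no ratio passed the adjustment. The 8 pairs whose groups did not overlap had an unadjusted exact permutation p of 0.0357 and an adjusted p of 0.0536, and they included PFKFB2 against PFKFB3 (1.24) and ENO2 against ENO1 (0.93). With BAY in hypoxia, 3 against 3 libraries cannot go below an exact permutation p of 0.1. There too 8 pairs did not overlap, among them SLC16A1 against SLC16A3 (-1.26) and PFKFB2 against PFKFB3 (0.94). With BAY on top of TGF-β1, HK2 against HK1 (-0.43) and PFKFB4 against PFKFB3 (0.24) passed, each with an adjusted exact permutation p of 0.0476. Both calls were lost on leaving out any library of the 2 groups other than TGF-β1 plus BAY replicate 2, without which 4 ratios passed. With 1 library fewer, the smallest possible p passes the adjustment over 12 pairs only if several ratios reach it. These losses therefore do not show that the calls rest on single libraries.

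Per kilobase, the make-up of several steps differed widely between groups. SLC16A3 took 76.7% ± 1.53 of the lactate transporter level in hypoxic BAY libraries, 58.0% ± 1.89 in hypoxic solvent, 65.2% ± 2.39 in TGF-β1 plus BAY, 64.2% ± 1.27 in TGF-β1, 41.1% ± 1.13 in normoxic BAY and 33.3% ± 0.620 in normoxic solvent libraries (SD). It was thus the larger part with hypoxia or TGF-β1 and the smaller part in the other 2 groups, on this scale. HK2 took 23.1% of the hexokinase level in hypoxic BAY, 20.3% in hypoxic solvent, 3.64% in TGF-β1 plus BAY, 4.42% in TGF-β1, 6.84% in normoxic BAY and 10.0% in normoxic solvent libraries. PFKFB2 took 5.29%, 2.69%, 19.4%, 14.2%, 46.2% and 25.9% of the PFKFB level in the same order of groups, so it was largest with BAY in normoxia.

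PFKFB4 took 33.9% of the PFKFB level in hypoxic BAY and 38.0% in hypoxic solvent libraries, and between 7.63% and 19.6% in the normoxic groups. PFKP led phosphofructokinase 1 in 5 groups with 53.2% to 70.0%, and in normoxic BAY libraries with 44.2%. With the merged length of all exons in place of the principal transcript, the order of isoforms was the same in 40 of 48 combinations of step and group. It differed for PFKFB2 and PFKFB3 with BAY in normoxia, PFKFB2 and PFKFB4 with TGF-β1 plus BAY, HK1 and HKDC1 in both hypoxic groups and with TGF-β1 plus BAY, PFKL and PFKM in both TGF-β1 groups, and SLC16A1 and SLC16A3 in hypoxic solvent cells.

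**Figure D4:**
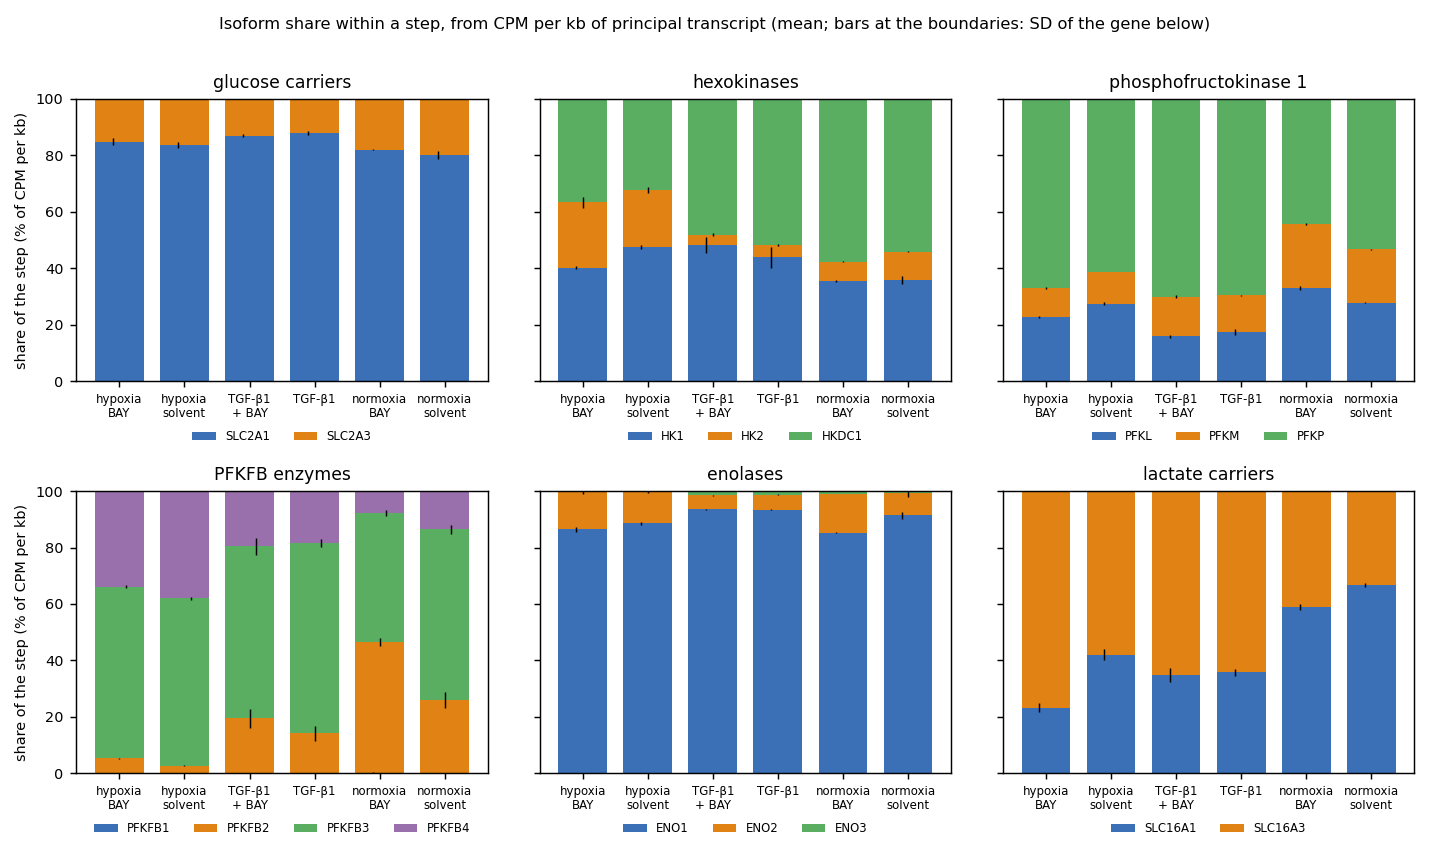
Share in percent of the summed CPM per kb that each isoform takes at 6 of the steps, as group means with SD bars at the boundaries, for the 6 groups. SLC16A3 is the larger share in both hypoxic and both TGF-β1 groups, at 58.0 to 76.7%, and PFKFB2 takes 46.2% with BAY in normoxia.

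Other genes of the pathway were read from lists that hold no member, and the share of each list called is set against the 60.8, 43.9, 37.9, 62 and 29.5% of all genes called in the same 5 comparisons, in the order hypoxia, BAY in normoxia, BAY in hypoxia, TGF-β1 and BAY on top of TGF-β1. Of 16 genes of pyruvate and lactate handling, 4 rose and 8 fell in hypoxia, 5 and 7 with BAY in normoxia, 3 and 5 with BAY in hypoxia, 2 and 8 with TGF-β1, and 3 and 7 with BAY on top of TGF-β1. These were 75, 75, 50, 62.5 and 62.5% of the list, near the share of all genes with TGF-β1 and above it in the other 4 comparisons. PDK1, a kinase that switches off pyruvate dehydrogenase, averaged 147 ± 2.61 CPM in hypoxia and 35.3 ± 1.07 CPM in normoxia (log2 fold change 2.06). PDK4, another such kinase, averaged 201 ± 3.51 CPM with BAY and 12.4 ± 4.18 CPM with solvent in normoxia (4.04), 42.5 ± 7.76 and 17.6 ± 1.80 CPM in hypoxia (1.27), and 39.9 ± 14.4 and 1.94 ± 0.521 CPM with TGF-β1 (4.35). It rose with BAY in all 3 settings and fell with TGF-β1 alone (-2.67). MPC1, a subunit of the mitochondrial pyruvate carrier, fell by 1.61 in hypoxia, and its partner MPC2 fell by 1.87 with TGF-β1.

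Among 9 or 10 other hexose carriers tested, 3 rose and 4 fell in hypoxia, 3 and 2 with BAY in normoxia, 1 and 2 with BAY in hypoxia, 4 and 6 with TGF-β1, and 5 and 1 with BAY on top of TGF-β1. The shares called were 77.8, 55.6, 33.3, 100 and 60%, below that of all genes with BAY in hypoxia and above it otherwise. SLC2A2, the carrier GLUT2 of liver, islets and proximal tubule, averaged 1.51 ± 0.353 CPM with TGF-β1 and 36.5 ± 6.35 CPM with solvent (-4.60). It also fell in hypoxia, to 14.0 ± 0.920 CPM in the hypoxic solvent libraries (-1.38). SLC2A12 averaged 70.1 ± 12.1 CPM with TGF-β1 plus BAY, 29.6 ± 4.73 CPM with TGF-β1 and 3.74 ± 0.425 CPM with solvent, a rise of 2.98 with TGF-β1 and a further 1.25 with BAY. SLC2A14, a near-identical copy of SLC2A3 whose reads cannot be separated with certainty, was at 4.93 ± 0.353 CPM in hypoxia and 0.756 ± 0.169 CPM in normoxia.

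In the pentose phosphate list of 7, 2 rose and 5 fell in hypoxia, 1 and 2 changed with BAY in normoxia, 0 and 3 with BAY in hypoxia, 3 and 1 with TGF-β1, and 0 and 3 with BAY on top of TGF-β1. That is 100, 42.9, 42.9, 57.1 and 42.9% of the list, near or below the share of all genes with BAY in normoxia and with TGF-β1. The transketolase gene TKT averaged 1205 ± 29.3 CPM in hypoxia and 704 ± 48.6 CPM in normoxia (0.78). Of 10 glycogen genes tested 4 rose and 2 fell in hypoxia, where PPP1R3C, a glycogen-targeting subunit of protein phosphatase 1, and the branching enzyme GBE1 rose by 2.29 and 2.16. The glycogen counts were 0 and 5 with BAY in normoxia, 1 and 3 with BAY in hypoxia, 2 and 4 with TGF-β1, and 0 and 2 with BAY on top of TGF-β1. At 60, 50, 40, 60 and 20% called, glycogen genes lay near the share of all genes in 4 comparisons and below it with BAY on top of TGF-β1. Of 9 or 10 other isozymes tested, 1 rose and 3 fell in hypoxia, 2 and 1 with BAY in normoxia, 1 and 2 with BAY in hypoxia, 3 and 2 with TGF-β1, and 1 and 1 with BAY on top of TGF-β1. Their shares, 44.4, 33.3, 33.3, 50 and 20%, were each below that of all genes. TIGAR, which removes fructose 2,6-bisphosphate, averaged 1.47 ± 0.544 CPM in hypoxia and 11.5 ± 0.724 CPM in normoxia (-2.96). The pyruvate carboxylase gene PC rose with BAY by 0.92 in normoxia, 1.07 in hypoxia and 0.48 on top of TGF-β1.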

How the data were processed

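Poly(A) RNA from HK-2 cells (24 libraries) was sequenced by the authors, who deposited estimated counts per Ensembl gene ID; the submitters' processing notes name Salmon, GRCh38 (hg38) and DESeq2, while the annotation, tool versions and strand setting they used could not be stated, being not given in the sources used here. Of values above 0, 48.6% were not whole, and the deposited estimated counts were rounded. Gene symbols were found for 58919 of 65180 IDs.

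The 2 fits used 14 libraries (oxygen and BAY, 21316 genes) and 18 normoxic libraries (TGF-β1 and BAY, 21639 genes), which share 8 libraries: edgeR 4.0.16 (R 4.3.3) quasi-likelihood with filterByExpr, TMM and Benjamini-Hochberg adjustment over all genes, called at an adjusted p under 0.05, after a check on simulated data. Standard errors are the log2 fold change over the square root of F. CPM was scaled by TMM over all 24 libraries. Because the comparisons in each fit share control libraries, they were read side by side. Lengths and positions come from GENCODE 29. Pseudogene IDs named as a member's symbol followed by P and a number held at most 0.137% of that member's counts. Pseudogenes under other names were not counted. Counting is limited by the number of reads, by their assignment between near-identical genes and by the spread between libraries. The depth was 78862528 to 105571250 counts per library.

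Values by library are given for members among the 3 largest rises or falls of a comparison with no overlap and a mean of 5 CPM or more in one of the groups; list genes are the up to 2 called ones with the largest change and at least 1 CPM, and a part of these is named. For interactions the 3 called members with the largest absolute value are named first. Members and lists were chosen with earlier results of these data known. Alternatives were library totals, RLE, DESeq2 1.42.0, limma voom, no filter, gene IDs of a symbol summed, all libraries in 1 fit, a replicate block, each library left out and, added after the data were seen, each subset of libraries.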

Additional observations from a re-analysis of the deposited data

Results flagged for a closer look

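Effects of BAY differed between settings by a test of the difference itself, given here for the 3 called members with the largest absolute value in each case. Between hypoxia and normoxia the log2 change with BAY differed by 1.15 for SLC2A3, 1.11 for SLC2A1 and 1.10 for HK2. Between cells with and without TGF-β1 it differed by 0.95 for SLC2A3, 0.87 for SLC16A1 and -0.83 for PFKFB2. All 6 kept their direction and their call in both subsets of libraries. Dixon's test was applied to the 87 combinations of a member and a group of 4 or more libraries with at least 1 CPM. It set no library apart from the others. All these combinations came from the normoxic solvent, TGF-β1 and TGF-β1 plus BAY groups, which split into the subsets. Dixon's test looks for a single library and can miss a split with more than 1 library on each side, so no conclusion is drawn. The groups of 3 libraries, hypoxic solvent among them, were not tested.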

How the results depend on the processing

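Of 140 called member values, over 5 comparisons and 2 interactions, none changed sign, 118 kept their call under every alternative and 22 lost it under at least 1. Of 91 values not called, 33 changed sign under some alternative and 47 were called under at least 1; 2 were called with the other sign, both with TGF-β1, PFKM at -0.13 with library totals and ENO2 at 0.20 in subset 1. Leaving out each library in turn gave 28 to 30 called members in hypoxia, 22 to 24 with BAY in normoxia, 15 to 19 with BAY in hypoxia, 28 in each fit with TGF-β1 and 13 to 16 with BAY on top of TGF-β1. The interactions gave 13 to 17 for oxygen and 12 to 17 for TGF-β1. Isoform ratios with TGF-β1 stayed at 12, and those with BAY on top of TGF-β1 were 0 to 4, limited by the smallest possible p as given above.

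The main fits did not pair the libraries by number. Deviations of same-numbered libraries correlated at -0.089 to 0.122 over the comparisons, and under 0.1 for at least 1 pair in each. A weak correlation over all genes does not settle whether the libraries were paired. With TGF-β1 and with TGF-β1 plus BAY, replicates 1 and 2 formed subset 1 and the others subset 2, so number and subset go together there. With the replicate block the counts of called members were 29 in hypoxia, 24 with BAY in normoxia, 18 with BAY in hypoxia, 28 with TGF-β1, 22 with BAY on top of TGF-β1 (6 higher, 16 lower), 13 for the oxygen interaction and 20 for the TGF-β1 interaction (18 positive, 2 negative). Over all genes the block called 12182, 8379 and 7864 of 21316 in the first 3 of these. With TGF-β1 it called 13911 of 21639, and with BAY on top of TGF-β1 7231, against 6386 without the block. For the interactions it called 3038 of 21316 and 5922 of 21639, against 3571 and 4487 without it. Every library correlated best with its own number in 0 of 3 pairs in hypoxia, 0 of 3 and 3 of 3 with BAY in normoxia and hypoxia, 1 of 5 with TGF-β1 and 3 of 5 with BAY on top of it. Ratios as paired differences cannot go below an exact permutation p of 0.25 with 3 pairs or 0.0625 with 5.

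With subset 1 alone 23 members were called with BAY on top of TGF-β1, 23 in the oxygen interaction and 22 in the TGF-β1 interaction. The oxygen interactions of PGK1 and PFKFB4 were lost in subset 2 (adjusted p = 0.147 and 0.0954), the one of PFKFB4 also without normoxic BAY replicate 2, hypoxic BAY replicate 3 or hypoxic solvent replicate 2, and the one of PGK1 on leaving out most single libraries. The TGF-β1 interaction of TPI1 was lost without normoxic BAY replicate 2 (0.0503). Depth limits FBP1, PFKFB1 and ALDOC, and PCK1 outside BAY and hypoxia.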
